A study of Bos grunniens x Bos taurus and Bos grunniens with 6 samples.

Results

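The genes of meiotic crossover formation were examined in testis tissue of 4-year-old cattle-yak and yak. The list comprised 9 symbols, namely MSH4, MSH5, HFM1, TEX11, SHOC1, M1AP, RNF212, CCNB1IP1 and MLH3, and was matched to the gene symbols of the FPKM table (fragments scaled by gene model length and library depth) without regard to case. Of these, 8 were found, each on 1 of the 18918 genes, while no gene carried the symbol CCNB1IP1, which was not analysed here. The cattle-yak libraries TES5, TES6 and TES7 came from 3 F1 males of Jersey cattle sires and Gannan yak dams, and the yak libraries Yak8, Yak9 and Yak10 from 3 Gannan yak males, with 1 library per animal. The cattle-yak and yak came from different counties. The sample descriptions name castration as the source of all testes, while the methods of the study give it for cattle-yak and euthanasia for yak, so hybrid origin, place and possibly tissue collection cannot be told apart. Reads of both groups were mapped to the yak genome, although the hybrids also carry chromosomes of cattle, and the effect of this on the values was not tested.

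In the first meiotic division, programmed DNA breaks are repaired from the homologous chromosome, and some of the joint molecules that form become crossovers, which hold the homologs together until they separate. MSH4 and MSH5 form a clamp on these joint molecules, and the helicase HFM1 acts on the same intermediates. TEX11, SHOC1 and M1AP belong to a complex that supports synapsis and crossover formation, RNF212 and CCNB1IP1 are ring finger proteins that select the sites that will mature, and MLH3 belongs to the endonuclease that resolves the mature sites. In the testis these events take place in primary spermatocytes, and loss of several of these genes in mice stops spermatogenesis in meiosis.

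The values rested on 11175100 to 11834987 fragments on genes in cattle-yak and 12991641 to 13136129 in yak. RNA of germ cell and of somatic testis cell markers was detected in both groups, and no gene of any marker list stood at 0 in all 3 cattle-yak libraries. Such detection does not show that the cells were present, and histology in the paper found no round spermatids or sperm in cattle-yak. The shares of these markers differed between the groups. In cattle-yak, 13 of 13 Sertoli, 8 of 8 Leydig, 6 of 6 peritubular myoid and 8 of 9 spermatogonial marker genes were called higher by the rule given in the next paragraph, whereas 4 of 4 round spermatid and 6 of 6 elongating spermatid genes were called lower. The same rule called 33.4% of all tested genes higher and 20.8% lower. Of 8 spermatocyte genes 4 were lower (PIWIL1, OVOL2, TBPL1 and HSPA2) and 1 was higher (SYCP3), while SYCP1, DMC1 and SPO11 were not called. Of 6 endothelial genes 1 was lower and 3 were higher, and of 5 macrophage genes 2 were lower and 2 higher. The summed FPKM of the spermatocyte markers ranged from 253 to 404 in the hybrids, against 843 to 896 in yak, and that of the Sertoli markers 2701 to 2892 and 532 to 612. In yak the spermatocyte sum came mostly from HSPA2, TBPL1 and PIWIL1, with means of 320, 268 and 148 FPKM. Round spermatid markers summed to 5.85 to 28.9 FPKM in the hybrids and 407 to 594 in yak. Elongating spermatid markers summed to 18.3 to 85.9 FPKM in the hybrids and 9060 to 11018 in yak. In whole tissue, fewer cells of a type and less RNA per cell cannot be told apart, and the part of these shifts in the results that follow was not tested.

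All 8 genes passed the minimum mean of 0.5 FPKM, and limma was run on log2 (FPKM + 1) for 15042 genes, with two-sided p-values. Calls needed an adjusted p (Benjamini-Hochberg) under 0.05 together with |log2 (foldchange)| over 1. TEX11 was called higher in cattle-yak, M1AP and RNF212 were called lower, and the other 5 genes were not called. Of all tested genes 33.4% were called higher and 20.8% lower, or 54.2% in either direction, so 1 and 2 of 8 are not counts that stand above this background. In 4 of the 8 genes (TEX11, M1AP, RNF212 and MLH3) the cattle-yak and yak ranges stood apart, a pattern found in 84.1% of all tested genes. The median log2 (foldchange) was −0.19 over the 8 genes and 0.51 over all tested genes. With median-of-ratios scaling, under which the median over all tested genes was 0.01, 17.5% of the tested genes were called higher and 27.9% lower.

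**Figure D1:**
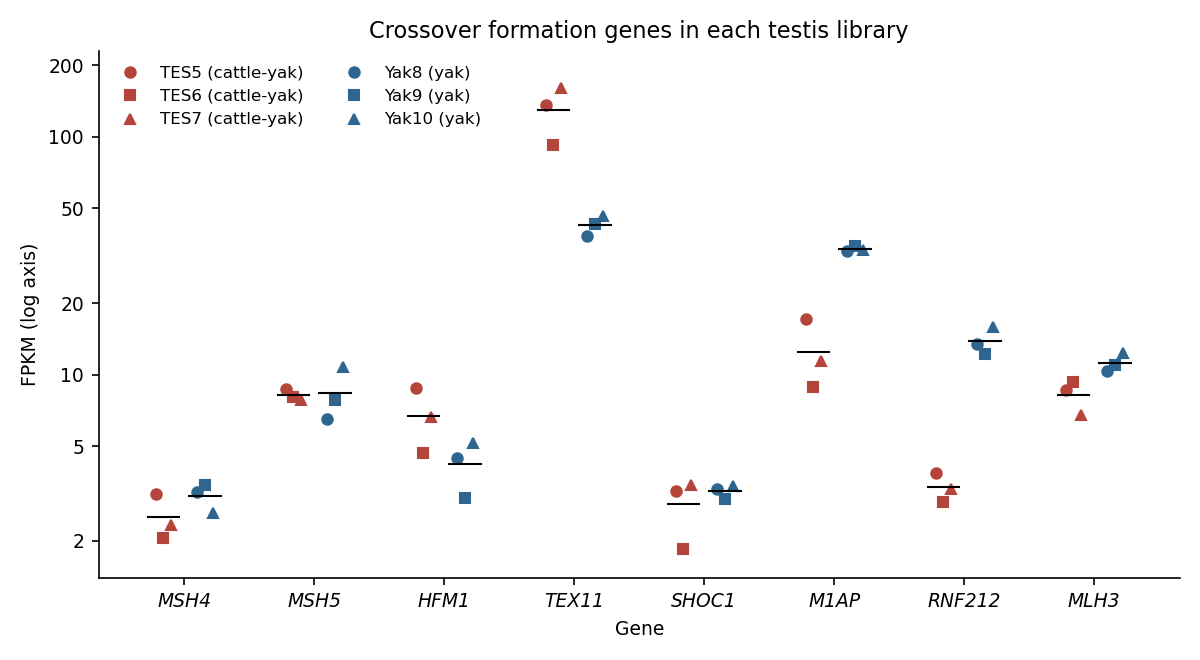
FPKM of the 8 crossover formation genes (log axis) in 3 cattle-yak and 3 yak libraries, 1 point per animal, with a black line at the group mean. The groups lie apart in TEX11, which is higher in cattle-yak, and in M1AP, RNF212 and MLH3, which are lower, and they overlap in MSH4, MSH5, HFM1 and SHOC1.

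MSH4 (ENSBGRG00000003243), a subunit of the MutS-type clamp used in meiosis, had 3.14 FPKM in TES5, 2.07 in TES6 and 2.33 in TES7, against 3.21 in Yak8, 3.44 in Yak9 and 2.61 in Yak10. TES5 lay within the range of the yak animals, and the groups overlapped. These values came from 64 to 103 fragments per cattle-yak library and 94 to 125 per yak library. The log2 (foldchange) was −0.23, with a 95% interval from −0.62 to 0.17 and an adjusted p of 0.253 from limma.

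Its partner MSH5 (ENSBGRG00000016250) had 8.69, 8.04 and 7.86 FPKM in TES5, TES6 and TES7 and 6.50, 7.80 and 10.8 FPKM in Yak8, Yak9 and Yak10. All 3 cattle-yak values fell inside the yak range. With the deposited scaling the log2 (foldchange) was 0.00 with a standard error of 0.18. On that scale its 95% interval from −0.41 to 0.41 leaves out a change of the size of the threshold in either direction. The value was −0.56 (95% interval −0.98 to −0.14) with median-of-ratios scaling and −2.24 relative to the Sertoli markers. The values rested on 263 to 431 fragments per library.

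HFM1 (ENSBGRG00000002085), a meiotic DNA helicase, had 8.78 FPKM in TES5, 4.69 in TES6 and 6.64 in TES7, whereas Yak8, Yak9 and Yak10 had 4.45, 3.02 and 5.19 FPKM. TES5 and TES7 lay above every yak animal, but TES6 lay below Yak10. The log2 (foldchange) was 0.55 (95% interval −0.01 to 1.10, adjusted p = 6.2e-02 from limma), a difference not past either threshold. When each library was left out it lay between 0.36 (without TES5, adjusted p = 0.188 from limma) and 0.75 (without TES6, adjusted p = 2.0e-02 from limma), under the fold change threshold throughout.

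TEX11 (ENSBGRG00000007261), which is X-linked in human and mouse and needed for pairing and crossovers in male meiosis, was the most abundant gene of the list in every library. It had 135.5 FPKM in TES5, 92.0 in TES6 and 160.5 in TES7, against 38.4 in Yak8, 43.0 in Yak9 and 46.6 in Yak10. Even TES6, the lowest cattle-yak library, lay well above the highest yak library. The group means were 129.3 ± 34.7 and 42.7 ± 4.07 FPKM (SD, n = 3 each), a 3.03-fold difference. On log2 (FPKM + 1) the difference was 1.55 with a standard error of 0.19 (limma, adjusted p = 1.1e-04), and the value was exceeded by 17.0% of all tested genes. With 2307 to 8508 fragments per library, the exact Poisson 95% intervals were narrow, from 89.4 to 94.7 FPKM in TES6 and from 157.1 to 164.0 in TES7, so TES6 and TES7 differed by more than counting error. The call was lost with median-of-ratios scaling, where the log2 (foldchange) was 0.93, and relative to the Sertoli markers it was −0.70.

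SHOC1 (ENSBGRG00000003667), a DNA-binding protein of the same complex, had 3.26, 1.85 and 3.44 FPKM in TES5, TES6 and TES7 and 3.30, 2.996 and 3.39 FPKM in Yak8, Yak9 and Yak10. TES7 had the highest value of all 6 libraries and TES6 the lowest, with the yak animals between them. SHOC1 had the fewest fragments of the list, on a gene model of 1452 bases, and the value of TES6 rested on 30 fragments (exact Poisson 95% interval 20.2 to 42.8). Its log2 (foldchange) was −0.16 (95% interval −0.62 to 0.29, adjusted p = 0.463 from limma) and 0.041 without TES6, so with the deposited scaling no difference was detected.

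M1AP (ENSBGRG00000006523), the third member of this complex, had 17.1 FPKM in TES5, 8.86 in TES6 and 11.4 in TES7, while Yak8, Yak9 and Yak10 had 33.1, 34.7 and 33.4 FPKM. The yak animals were close together, with a coefficient of variation of 2.46% against 34.0% in cattle-yak, and every cattle-yak animal was lower. The mean in yak was 2.71 times that in cattle-yak. On log2 (FPKM + 1) the difference was −1.41 with a standard error of 0.21 (limma, adjusted p = 2.6e-04). Thus TEX11, SHOC1 and M1AP, whose proteins act together, were called higher, not called and called lower.

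RNF212 (ENSBGRG00000019312), a ring finger protein with SUMO ligase activity that marks the future crossover sites, showed the largest decrease of the list. It had 3.86 FPKM in TES5, 2.91 in TES6 and 3.31 in TES7, against 13.4 in Yak8, 12.2 in Yak9 and 15.8 in Yak10. The animals of the groups lay far apart, with means of 3.36 ± 0.47 and 13.8 ± 1.87 FPKM (SD, n = 3 each), that is a mean 4.11 times higher in yak. On the log2 scale the difference was −1.76 with a standard error of 0.15 (limma, adjusted p = 1.2e-05), and 13.1% of all tested genes had a smaller value.

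MLH3 (ENSBGRG00000008456), a subunit of the endonuclease that resolves crossovers, had 8.58, 9.36 and 6.76 FPKM in TES5, TES6 and TES7. Yak8, Yak9 and Yak10 had 10.3, 10.98 and 12.3 FPKM, so the groups did not overlap, although TES6 came within about 1 FPKM of Yak8. The log2 (foldchange) of −0.41 (95% interval −0.76 to −0.07) had an adjusted p of 3.2e-02 from limma but was under the fold change threshold, and 81.9% of all tested genes passed this adjusted p. The adjusted p from limma rose to 0.103 without TES7, 6.6e-02 without Yak9 and 0.104 without Yak10.

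In yak the mean FPKM descended from TEX11 through M1AP, RNF212, MLH3, MSH5, HFM1 and SHOC1 to MSH4. The ranges over the 3 animals overlapped between the neighbours RNF212 and MLH3, MLH3 and MSH5, HFM1 and SHOC1, and SHOC1 and MSH4. Within each yak library, however, RNF212 lay above MLH3, MLH3 above MSH5 and HFM1 above SHOC1 (in Yak9 only 3.02 and 2.996 FPKM). SHOC1 lay below MSH4 in Yak9 and above it in Yak8 and Yak10. Differences between neighbours were not tested. In cattle-yak the order was TEX11, M1AP, MLH3, MSH5, HFM1, RNF212, SHOC1 and MSH4, and the ranges of neighbours stood apart between TEX11 and M1AP and between HFM1 and RNF212, while all others overlapped. RNF212 thus took place 3 in yak and place 6 in cattle-yak. TEX11 alone made up 74.0% ± 4.67 (SD, n = 3) of the summed FPKM of the 8 genes in the hybrids, against 35.4% ± 1.20 (SD, n = 3) in yak (exact permutation test, two-sided, p = 0.1, the smallest that 3 animals against 3 allow). The other 7 genes together had 37.8 to 53.4 FPKM in the hybrids and 74.3 to 83.6 in yak, while the 5 genes other than TEX11, M1AP and RNF212 together had 28.5 ± 3.46 and 30.1 ± 3.63 FPKM (SD, n = 3 each), with overlapping ranges.

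TES6 had the lowest value of the cattle-yak libraries in 6 of the 8 genes, the exceptions being MSH5 and MLH3, where TES7 was lowest. The summed FPKM of the spermatocyte markers was also lowest in TES6 (253, against 404 in TES5 and 337 in TES7), as was that of 10 genes of the meiotic chromosome axis and synaptonemal complex (340, against 567 and 451). Their part in the values of TES6 was not tested. Without TES6, TEX11 had a log2 (foldchange) of 1.77, M1AP −1.21 and RNF212 −1.69, and all 3 remained called.

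The plain ratio of 2 genes within a library does not depend on how libraries are scaled to each other. Pairs of functional partners were compared in this way on log2 (FPKM + 0.1) with exact permutation tests (two-sided), where the added 0.1 leaves some dependence. The part of cell makeup in these ratios was not tested. Of 5 pairs compared, 4 are given here. They are not independent, since TEX11 and MSH4 each stand in 2 of them. M1AP was present at 0.127, 0.0963 and 0.0710 of the level of TEX11 in TES5, TES6 and TES7 and at 0.861, 0.807 and 0.718 in Yak8, Yak9 and Yak10. That is a difference of −3.05 on the log2 scale, the widest of the 4 pairs.

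For SHOC1 over TEX11 the ratio was 0.0201 to 0.0241 in the hybrids and 0.0697 to 0.0859 in yak, a log2 difference of −1.79. HFM1 over MSH4 was 2.27 to 2.84 in the hybrids and 0.879 to 1.99 in yak, with a log2 difference of 0.94. In each of these 3 pairs the cattle-yak and yak ranges stood apart, and the exact permutation test gave p = 0.1, the smallest possible, which was 0.125 when adjusted over the 5 pairs. The clamp subunits MSH4 and MSH5 gave overlapping ratios, 0.257 to 0.361 in the hybrids and 0.242 to 0.495 in yak, with a log2 difference of −0.30 (exact permutation test, p = 0.5, adjusted 0.5).

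**Figure D2:**
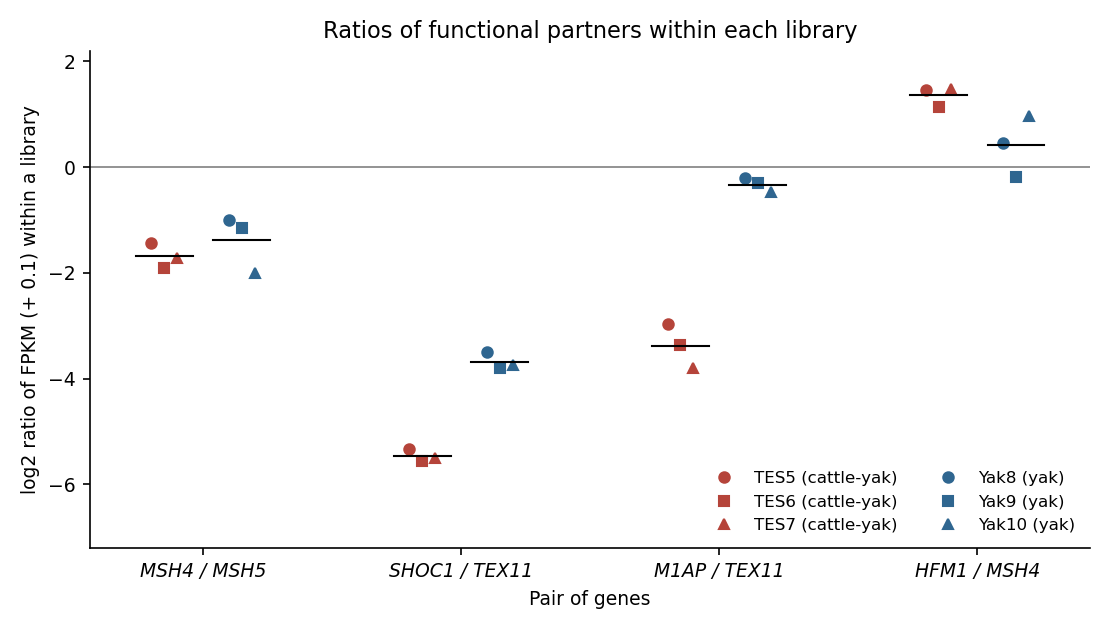
Log2 ratio of the FPKM (each with 0.1 added) of 4 pairs of functional partners within each library, 1 point per animal, with a black line at the group mean. The cattle-yak and yak animals lie apart in 3 pairs, most widely for M1AP over TEX11, and overlap for MSH4 over MSH5.

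Since the markers of germ cells and somatic cells differed between the groups, the fold changes were also read against other references. Centred on the 10 axis and synaptonemal complex genes, all of them active in meiotic cells, TEX11 had a log2 (foldchange) of 1.90, HFM1 0.91, MSH5 0.36, SHOC1 0.20, MSH4 0.13, MLH3 −0.05, M1AP −1.05 and RNF212 −1.41. TEX11 was called higher and M1AP and RNF212 were called lower on this scale too, where the median of all genes was 0.87 and 45.6% of them were called higher and 16.7% lower. Centred on the Sertoli markers, all 8 genes had values below 0, from −0.70 for TEX11 to −4.00 for RNF212, and 7 of them were called lower, as were 74% of all tested genes, while 0.186% were called higher. With median-of-ratios scaling the log2 (foldchange) was −0.68 for MSH4, −0.56 for MSH5, −0.63 for SHOC1 and −0.98 for MLH3, and the adjusted p from limma (7.0e-03, 2.1e-02, 1.6e-02 and 3.7e-04) then passed its threshold, though none passed that on the fold change.

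**Figure D3:**
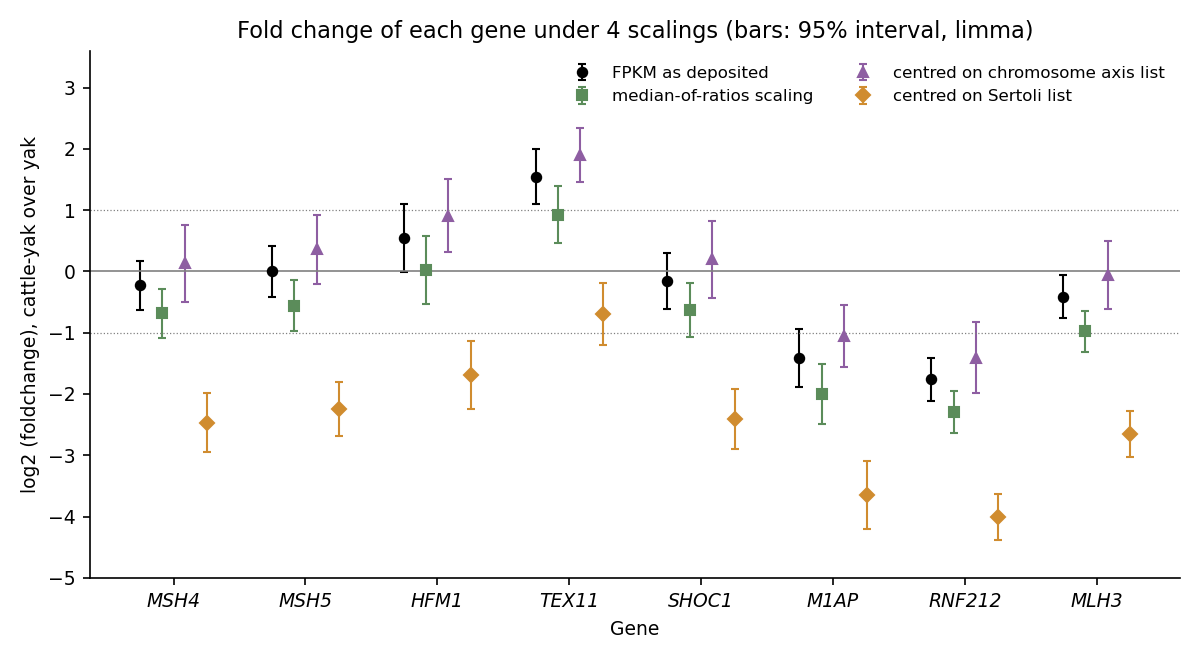
Log2 (foldchange) of the 8 genes, cattle-yak over yak, with FPKM as deposited, with median-of-ratios scaling, and after centring each library on the chromosome axis list or on the Sertoli list. Points are limma estimates and bars their 95% intervals. The whole set shifts with the scaling, from the highest values on the axis list to the lowest on the Sertoli list. Both centrings shift all genes by 1 constant, so the order of the genes is fixed under them.

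Among 30 tested genes of 5 further lists of the crossover pathway, 7 were called higher, 6 lower and 17 were not called, beside 33.4% higher and 20.8% lower of all tested genes. These counts do not stand above that background. Centred on the Sertoli markers, every one of the 30 had a value below 0, on a scale where 74% of all tested genes were called lower. In the list of other maturation factors 3 of 8 genes were lower and 1 higher. PRR19, which forms a complex with CNTD1 at crossover sites, had 20.1, 10.3 and 8.87 FPKM in TES5, TES6 and TES7 and 202, 180 and 241 FPKM in Yak8, Yak9 and Yak10. Its log2 (foldchange) was −3.96 (adjusted p = 3.2e-06 from limma). CNTD1, a cyclin-related factor, was lower as well (log2 (foldchange) −2.25, limma, adjusted p = 1.2e-05), with group means of 19.0 ± 5.41 FPKM in the hybrids and 92.5 ± 11.3 FPKM in yak (SD, n = 3 each).

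RNF212B, a relative of RNF212, was called in the opposite direction to RNF212. It had 7.55, 6.16 and 7.52 FPKM in TES5, TES6 and TES7 and 1.64, 1.52 and 2.14 FPKM in Yak8, Yak9 and Yak10. Every cattle-yak animal was above every yak animal, and the log2 (foldchange) was 1.55 (adjusted p = 3.1e-05 from limma), or −0.69 relative to the Sertoli markers. EXO1, an exonuclease with a structural role in crossover resolution, averaged 1.88 ± 0.25 and 1.64 ± 0.39 FPKM in the groups (SD, n = 3 each), a difference within the spread (log2 (foldchange) 0.13, adjusted p = 0.479 from limma). CDK2 and the 2 genes with the symbol BRIP1, which are uncertain, were not called.

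Of the general mismatch repair relatives of MSH4, MSH5 and MLH3, 4 of 6 genes were called higher, beside 33.4% of all tested genes (17.5% with median-of-ratios scaling), and none lower, beside 20.8% (by limma, 0 called and 0 at an unadjusted p under 0.05). PMS2, a mismatch repair endonuclease subunit, averaged 21.8 ± 1.36 FPKM in the hybrids and 6.11 ± 0.60 FPKM in yak (SD, n = 3 each), and its log2 (foldchange) of 1.68 had an adjusted p of 4.7e-06 from limma. MSH6, which takes part in mismatch recognition, had a log2 (foldchange) of 1.01, and the less abundant of 2 genes with the symbol MSH3, which are uncertain, had 1.22. These values were above 0 with median-of-ratios and axis-centred scaling as well, but below 0 when centred on the Sertoli markers. With median-of-ratios scaling MSH6 (0.40) and this MSH3 gene (0.86) were under the fold change threshold.

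Of the 6 structure-selective nuclease genes, which cut joint molecules by other routes, GEN1 was higher with a log2 (foldchange) of 1.04. SLX4, a nuclease scaffold, had a log2 (foldchange) of −3.28, with means of 21.1 ± 7.84 and 206 ± 21.7 FPKM (SD, n = 3 each). SLX1A, its nuclease subunit, had −1.63, and is uncertain because human carries a near-identical copy of this gene. In the list of dissolution factors and anti-crossover helicases 1 of 8 genes was higher (TOP3A, 1.21) and 1 lower (RTEL1, −1.92), beside 33.4% and 20.8% of all tested genes. RTEL1 was spread from 19.1 to 42.1 FPKM among the yak animals. The calls of GEN1 and TOP3A were lost with median-of-ratios scaling (0.46 and 0.64), and relative to the Sertoli markers both were below 0 (−1.20 and −1.03). Neither MCM8 (0.90) nor MCM9 (0.51), helicase subunits that act in meiotic repair, was called (0 called by limma, 2 at an unadjusted p under 0.05).

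**Figure D4:**
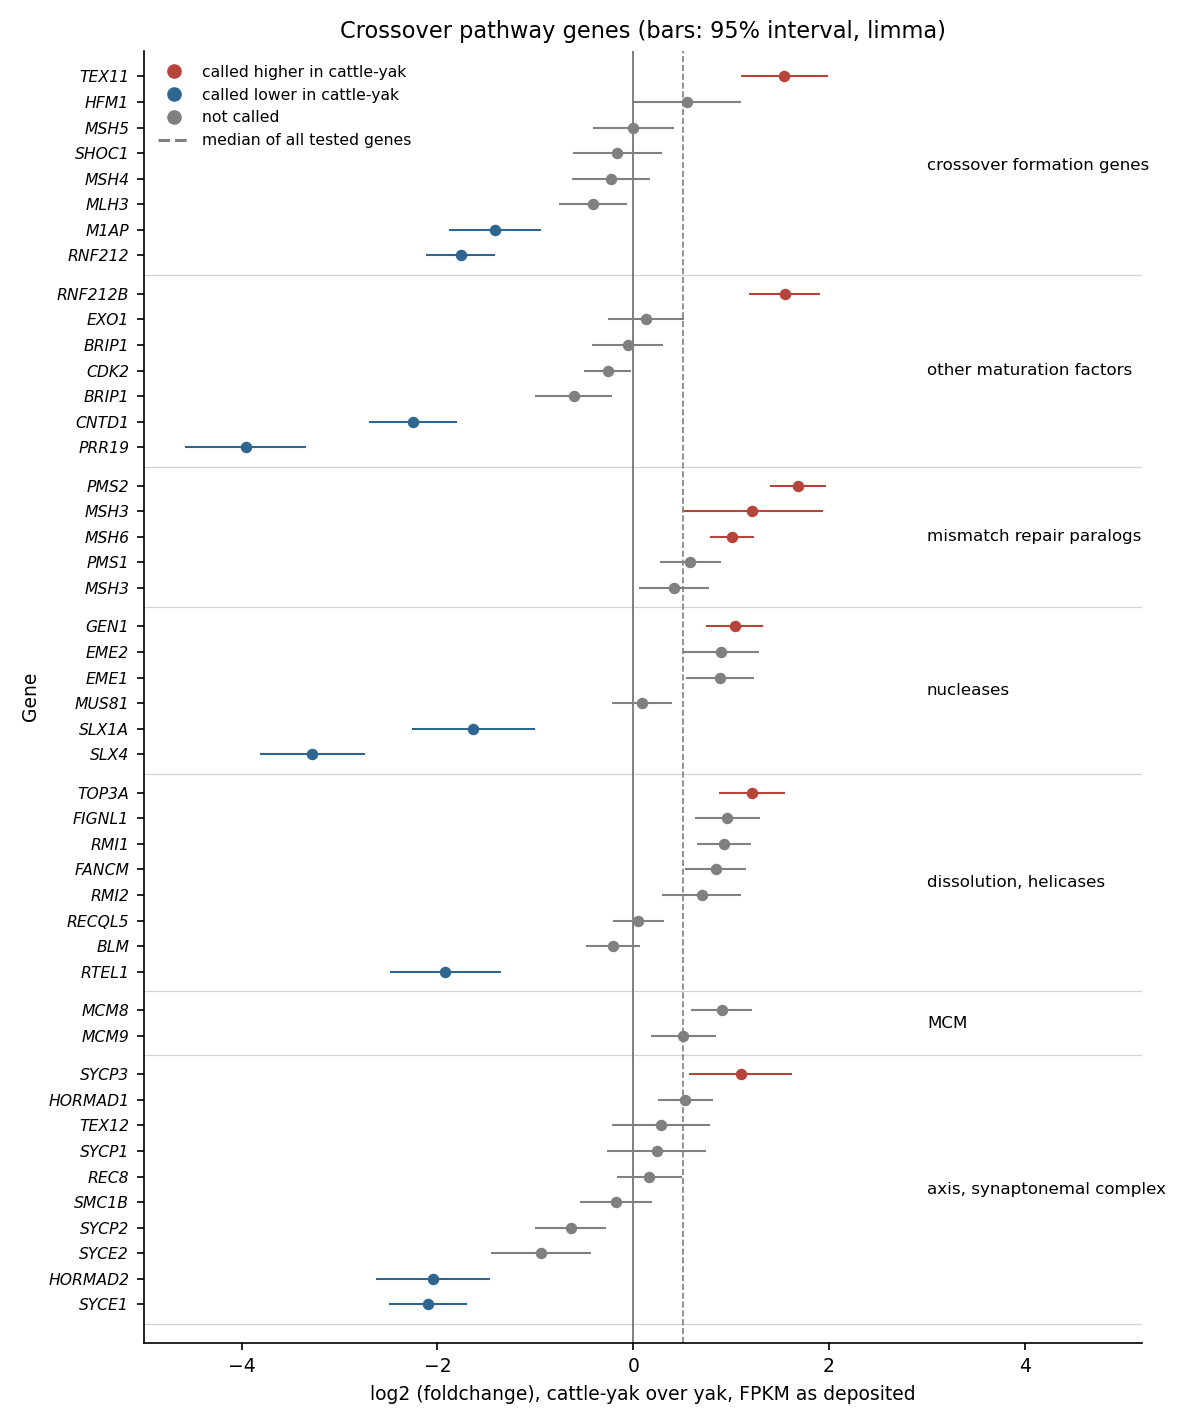
Log2 (foldchange) of the crossover formation genes, most genes of 5 further lists of the pathway, and the chromosome axis list, cattle-yak over yak, with FPKM as deposited. Points are limma estimates, bars 95% intervals, red and blue mark genes called higher and lower, and the dashed line is the median of all tested genes at 0.51. PRR19 and SLX4 lie furthest to the left, and the mismatch repair relatives lie to the right of 0.

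The axis and synaptonemal complex genes, which form the frame on which crossovers arise, included 1 of 10 genes called higher and 2 called lower, beside 33.4% and 20.8% of all tested genes, and had a median log2 (foldchange) of 0.00. SYCP3, a lateral element protein, had 99.4, 59.4 and 114.1 FPKM in TES5, TES6 and TES7 and 35.2, 42.3 and 44.6 FPKM in Yak8, Yak9 and Yak10, and its log2 (foldchange) was 1.10 (adjusted p = 2.1e-03 from limma). This call was lost with median-of-ratios scaling, where the value was 0.48, and relative to the Sertoli markers it was −1.15. As in TEX11, TES6 was the lowest and TES7 the highest of the cattle-yak libraries, and the groups did not overlap. SYCE1, a central element protein, and HORMAD2, an axis protein, fell by 2.10 and 2.04 on the log2 scale.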

How the data were processed

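Testis RNA of 3 cattle-yak and 3 yak was sequenced as paired-end mRNA libraries. After trimming with Trimmomatic, the authors aligned reads by HISAT2 against LU_Bosgru_v3.0 of the yak and deposited FPKM values, scaled by gene model length and library depth, with no further scaling between libraries. Their methods name Cufflinks, but the whole-fragment steps leave the tool that made the values uncertain. Groups were taken from the sample descriptions and columns from the sample titles. The values stood in whole-number steps, from which fragments and gene model lengths were recovered for 17973 genes (100% of their values within 0.03 of a whole fragment). On simulated data this returned the counts of 99.13% of 17790 genes.

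Genes with a mean of at least 0.5 FPKM were tested with limma 3.58.1 in R 4.3.3 (lmFit, eBayes with a variance trend) on log2 (FPKM + 1), which understates changes of low values. In simulated libraries of 15042 genes, 200 of 200 genes changed 4-fold and 1 unchanged gene were called. The changed genes all had a mean of at least 5 FPKM, as many were raised as lowered, and the spread between libraries was set. Unlike the data, these libraries held no broad shift between the groups, so the simulation gives no error rate for the calls here. Ratios and permutation tests used Python 3.11.15 with scipy 1.17.1. Counting intervals cover counting error only. Each library is 1 animal, so p-values measure the spread between animals.

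As alternatives, pseudocounts of 0.1 and 0.01, no filter, a minimum of 5 FPKM, median-of-ratios and TPM scaling, centring on an axis list or a Sertoli list, limma with a robust prior or no variance trend, voom on the recovered fragments, no fold change threshold and omission of each library were tried. The members and lists were chosen with earlier results of these data known. Named were every member, called genes of the pathway lists with EXO1 (some are not reported here, nor is 1 ratio), and the 5 genes most alike the members' mean profile. A sixth planned ratio, RNF212 over CCNB1IP1, could not be formed. The lists were short sets of pathway genes and of spermatogonial, spermatocyte, round and elongating spermatid, Sertoli, Leydig, myoid, endothelial and macrophage markers. No genome, chromosome position or sequence was used here.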

Additional observations from a re-analysis of the deposited data

How the results depend on the processing

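The calls of M1AP and RNF212 as lower held under all 18 alternatives, with log2 (foldchange) values from −1.65 to −1.21 and from −1.84 to −1.67 when each library was left out. TEX11 was called higher except with median-of-ratios scaling (0.93) and Sertoli centring (−0.70). Under these scalings 0 of the 8 genes were higher by limma (with 1 and 0 at an unadjusted p under 0.05). Voom, which called 1 gene higher, used the library depths alone and was not run under either of these scalings. Sertoli centring gave 7 lower genes and turned MSH5 (−2.24) and HFM1 (−1.69) below 0, and axis centring turned MSH4 (0.13) and SHOC1 (0.20) above 0. MSH5 had −0.56 with median-of-ratios scaling and −0.15 to 0.18 without 1 library, below 0 without TES5, Yak8 or Yak9, and SHOC1 had −0.28 to 0.041, above 0 without TES6. With a minimum of 5 FPKM, MSH4 and SHOC1 were not tested.

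Of the 30 further pathway genes, 2 were higher with median-of-ratios scaling, beside 17.5% of all tested genes. With a pseudocount of 0.1 or 0.01 or with voom 12 were higher, beside 5924, 5928 and 5966 of all 15042 tested genes. In alternatives chosen after seeing the data, 14 were higher with axis centring, beside 45.6% of all tested genes. With Sertoli centring 0 were higher (limma, 0 at an unadjusted p under 0.05), beside 0.186%, and 27 were lower, beside 74%. Without 1 library 5 to 8 were higher and 6 lower, beside 4904 to 5133 and 3076 to 3192 of the 15042. Each of the 4 partner ratios given kept its direction, with log2 differences from −0.61 to −0.11 for MSH4 over MSH5, −1.85 to −1.70 for SHOC1 over TEX11, −3.25 to −2.83 for M1AP over TEX11 and 0.65 to 1.22 for HFM1 over MSH4 without 1 library. No paired analysis was possible because the labels give the groups no shared animal numbers. Depth limits SHOC1 and MSH4 most, and 3 animals per group limit each exact test to p = 0.1.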

Other observations

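The mean profile of the 8 crossover formation genes, each centred on its own mean log2 (FPKM + 1), was 0.09 in TES5, −0.35 in TES6, −0.10 in TES7, 0.06 in Yak8, 0.05 in Yak9 and 0.24 in Yak10. It averages genes that moved in opposite directions between the groups. Among 10554 other genes with a symbol and at least 5 FPKM on average, the 5 with the highest Pearson's r with this profile over the 6 libraries were GPC2 (0.99), CAP1 (0.98), SRD5A1 (0.97), FKBP3 (0.97) and APIP (0.96). GPC2 had 11.9, 7.06 and 9.83 FPKM in TES5, TES6 and TES7 and 11.3, 11.2 and 14.98 FPKM in Yak8, Yak9 and Yak10, so that TES6 was lowest and Yak10 highest, as in the profile. These r values rank 10554 genes over 6 libraries that share their depth and tissue makeup, and are given as a description.

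In the annotation deposited with the values, 5 of the 8 crossover formation genes carried GO terms, and MSH4, MSH5 and MLH3 carried none. An enrichment test on these terms therefore cannot count the last 3.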
